A study of Mus musculus with 4 samples.

Results

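UDP-glucuronosyltransferases (UGTs) were followed in 4 samples of liver RNA from female BALBc mice, 2 labelled control and 2 labelled LB1, on 1-colour oligonucleotide arrays. The members were taken by name: every non-control probe that the scanner files name Ugt1a1, Ugt1a6a, Ugt1a9, Ugt2a3, Ugt2b1, Ugt2b5, Ugt2b34, Ugt2b35, Ugt2b36 or Ugt2b38. Of these 10 names, 9 have a probe, with 1 probe each, among 41174 non-control probes and 28632 named genes. Ugt1a6a under its own name was not analysed here. The series concerns a Lactobacillus species from ostrich given to mice, and the livers were collected 20 days after inoculation. The control and LB1 mice share strain, sex, tissue and day, and no genetic change is named for either group. The labels call LB1 a treatment group, and the sample titles call the same mice "stuff". The age of the mice, the dose and what the control mice received are not given in the sources used here. The comparison asks how liver transcripts of the UGT family differed between LB1 and control mice.

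UGTs are enzymes of the endoplasmic reticulum membrane that join glucuronic acid, taken from UDP-glucuronic acid, to bilirubin, steroids, bile acids and drugs, which makes these compounds water soluble and ready for export. The liver is a main site of this conjugation. In the Ugt1 locus, each isoform has a first exon and promoter of its own, spliced to downstream exons that all isoforms share, so a probe in a first exon reads 1 isoform and a probe in the shared exons reads their sum. The Ugt2b genes are separate, closely related genes in a cluster, and Ugt2a3 lies in the same cluster.

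The probes are shown first because the sequence decides which transcript a value belongs to. Each is 60 bases long and is printed 5′ to 3′ in the sense of the transcript, with coordinates on mm9. Within the Ugt1 locus, the probes named Ugt1a9 (chr1:89968031-89968090, plus strand), Ugt1a1 (chr1:90108880-90108939, plus strand) and the first of 2 named Ugt1a6b (chr1:90003830-90003889, plus strand) each list accessions of their own isoform alone. They lie at positions 677, 346 and 416 of their transcripts.
Ugt1a9: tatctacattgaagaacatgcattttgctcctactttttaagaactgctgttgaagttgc
Ugt1a1: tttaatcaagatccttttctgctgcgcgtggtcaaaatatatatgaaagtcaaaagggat
Ugt1a6b: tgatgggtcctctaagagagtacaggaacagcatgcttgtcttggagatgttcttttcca
The second probe named Ugt1a6b (chr1:90115472-90115531, plus strand, position 2171) lists accessions of Ugt1a10, Ugt1a6a, Ugt1a6b and Ugt1a7c, so it reads sequence shared between isoforms. In the Ugt2 cluster, the probes named Ugt2b38 (chr5:87850627-87850686, minus strand) and Ugt2b36 (chr5:87495455-87509913, minus strand) are shown because their accessions also list relatives.
Ugt2b38: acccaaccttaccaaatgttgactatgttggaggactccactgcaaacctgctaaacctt
Ugt2b36: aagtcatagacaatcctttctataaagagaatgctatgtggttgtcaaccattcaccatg
The Ugt2b38 probe lists Ugt2b37 and Ugt2b5 besides Ugt2b38, and the Ugt2b36 probe lists Ugt2b37 besides Ugt2b36. Their values may therefore hold signal of more than 1 gene. The Ugt2b36 probe covers 14459 bases of genome with its 60 bases, so it crosses an intron. No annotation on mm9 was used here, so exon and UTR assignments of the other probes rest on these accession lists and positions.

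The UGT member probes read lower in the LB1 livers. A lower transcript level cannot be told apart here from RNA or labelling that differed along the transcript. All 9 member probes had both LB1 arrays below both control arrays, against 32.3% of all 22976 tested probes, and 0 had both above, against 43.8%. With limma and Benjamini-Hochberg adjustment over all tested probes, 7 of the 9 were called lower at an adjusted p under 0.05, against 13.2% of all tested probes, and 0 were called higher, against 19.2%. The 7 were Ugt1a9, Ugt1a1, Ugt2b38, Ugt2b34, Ugt2b35, Ugt2b1 and Ugt2b36, and 6 of them fell at least 2-fold, against 11.1% of all probes. Ugt2a3 and Ugt2b5 did not pass. The median log2 difference, LB1 minus control, was -1.35 over the 9 members and 0.16 over all tested probes. Ugt1a9 passed the filter on dim probes only through the control arrays. Without it, 8 members were well above background on all 4 arrays and 6 of them were called lower, with a median of -1.27. Of the 18153 probes well above background on all arrays, 12.1% were called lower and 31.2% had both LB1 arrays below the controls. The 4089 unsaturated probes in the same range of mean level had a median of 0.26, 9.39% of them were called lower, and 28.1% had both LB1 arrays below the controls.

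Levels are log2 of the processed signal minus the 75th percentile of the same array, so a level of 0 is the brightness of the 75th percentile spot. That percentile was 411 and 415 signal units on the control arrays and 147 and 80.8 on the LB1 arrays, so raw signals fell far more than the levels below. With 2 samples a group, an exact two-sided permutation test over samples has 6 assignments and cannot go below 0.333. That is its p for every member. The adjusted p-values are limma's and borrow the spread of all probes. They rest on the control pair: without control replicate 1 only Ugt1a9 of the 7 stayed called, and without control replicate 2 none did (0 of 9), when 139 and 1 probes in all were called.

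**Figure D1:**
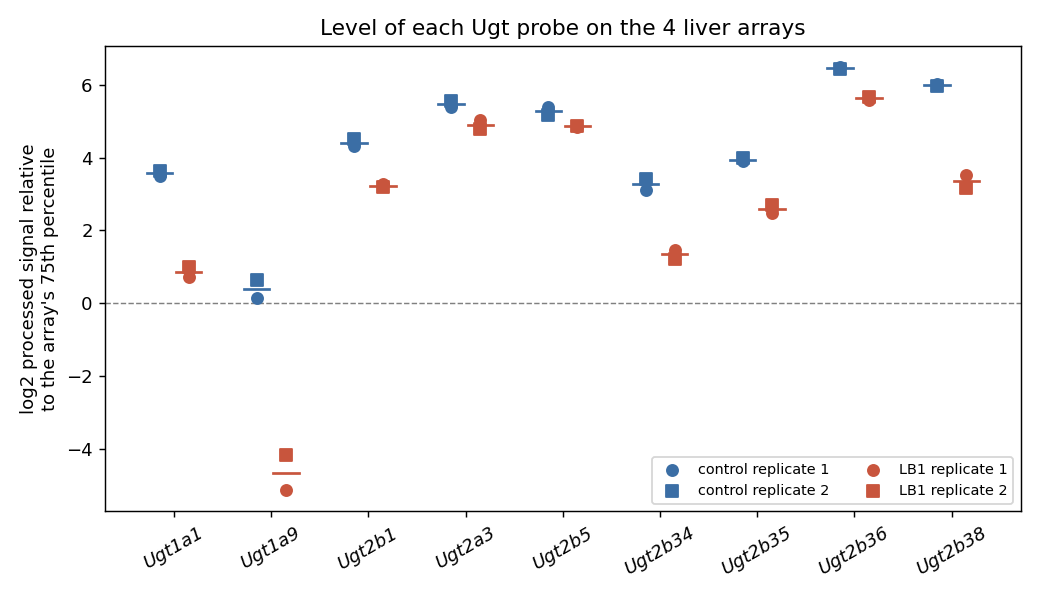
Level of the 9 UGT probes on each of the 4 arrays, as log2 processed signal minus the array's 75th percentile; points are arrays, by group, and lines are group means. Both LB1 points lie below both control points for every gene, from Ugt1a9, where LB1 sits at -5.14 and -4.19, to Ugt2b5, where LB1 sits at 4.84 and 4.88.

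Ugt1a1, the enzyme that conjugates bilirubin, had levels of 3.50 and 3.63 in the control livers and 0.73 and 0.99 in the LB1 livers. The LB1 arrays were well apart from the controls, and the gap between groups was many times the gap within either. Ugt1a1 fell by 2.71 on the log2 scale (SE 0.23, adjusted p = 0.0201 by limma), which is 6.54-fold lower. The pair of arrays on slide 1 differed by -2.78 and the pair on slide 2 by -2.64. Its processed signals were 4659 and 5122 in controls and 243 and 160 in LB1, above background on every array.

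Ugt1a9, which conjugates phenols and other drugs, had levels of 0.15 and 0.63 in controls and -5.14 and -4.19 in LB1. Both LB1 spots, at 4.15 and 4.43 signal units, were not well above background, so the fitted difference of -5.06 (SE 0.40, adjusted p = 0.0201 by limma) depends on how background was removed. Set against the dimmest signals that were well above background on the LB1 arrays, Ugt1a9 was 14.7-fold lower. That fold is no firm lower limit, as it too rests on how background was removed. The fitted difference was -1.49 after another background correction, normexp, and -2.05 in the deposited table of mean signals.

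Another isoform-specific probe of the locus, the first Ugt1a6b probe, is no member by the rule. It was too dim on both LB1 arrays to stand well above background. Since it passed the filter on dim probes only through the control arrays, its lower reading is no separate support for the members. By the same measure it was 4.80-fold lower there, again no firm limit (fitted difference -2.29, SE 0.23, adjusted p = 0.0201 by limma). The probe for shared sequence had levels of 7.66 and 7.64 in controls and 8.57 and 8.07 in LB1. Both control spots were saturated, so its difference of 0.67 (SE 0.26, adjusted p = 0.102 by limma) is only an upper limit and gives no direction for the summed Ugt1a isoforms.

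**Figure D2:**
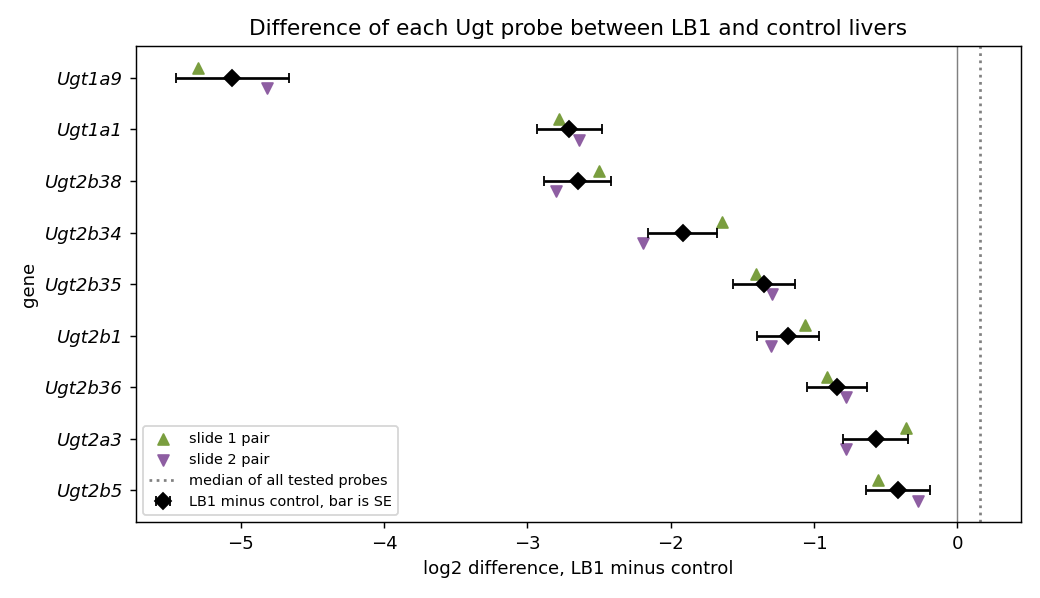
Log2 difference, LB1 minus control, of the 9 UGT probes; points are the limma estimates, bars their SE, triangles the differences on slide 1 and slide 2, and the dotted line the median of all tested probes, 0.16. Differences run from -5.06 for Ugt1a9 to -0.41 for Ugt2b5, and both slides lie below 0 for every gene.

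Among the Ugt2b genes, whose enzymes conjugate steroids, bile acids and drugs, the probe named Ugt2b38 fell the most. It also lists Ugt2b5 and Ugt2b37, whose own probes differed by only -0.41 and -0.50, so its value may not be that of Ugt2b38 alone. Its levels were 6.02 and 5.97 in controls and 3.52 and 3.17 in LB1, a fall of 2.65 (SE 0.23, adjusted p = 0.0201 by limma), or 6.27-fold. The order of Ugt1a1 and Ugt2b38 is not resolved, since their differences lie closer together than 1 SE. Ugt2b34 (chr5:87319553-87319612, minus strand) had levels of 3.10 and 3.42 in controls and 1.46 and 1.22 in LB1. It fell by 1.92 (SE 0.24, adjusted p = 0.0211), or 3.78-fold. Slide 1 gave -1.64 and slide 2 gave -2.20. Again no LB1 array reached a control array.

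Ugt2b35 (chr5:87441721-87441780, plus strand) had levels of 3.90 and 3.98 in controls and 2.49 and 2.69 in LB1. It fell by 1.35 (SE 0.22, adjusted p = 0.0222), or 2.55-fold. Ugt2b1 (chr5:87346310-87346369, minus strand) had levels of 4.33 and 4.50 in controls and 3.27 and 3.19 in LB1. It fell by 1.18 (SE 0.21, adjusted p = 0.0243), or 2.27-fold. These neighbours in the order of differences lie within 1 SE of each other.

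Ugt2b36 had levels of 6.49 and 6.45 in controls and 5.58 and 5.68 in LB1, and it fell by 0.84 (SE 0.21, adjusted p = 0.0387), or 1.79-fold. With the replicate number, which is also the slide, as a block in the fit, its adjusted p was 0.0587 and the call was lost. Ugt2b36 was the only member whose call the block changed.

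The remaining members differed less. Ugt2a3 (chr5:87754406-87754465, minus strand), a family member that the liver shares with the intestine, had levels of 5.40 and 5.55 in controls and 5.04 and 4.78 in LB1. It differed by -0.57 (SE 0.23, adjusted p = 0.110). Slide 1 gave -0.36 and slide 2 gave -0.78. Ugt2b5 (chr5:87554199-87554258, minus strand) had levels of 5.40 and 5.16 in controls and 4.84 and 4.88 in LB1, and its difference was -0.41 (SE 0.22, adjusted p = 0.193). Neither passed as scaled here, although the groups did not overlap. Both passed when each array was referred to its median (-1.20 and -1.05), with normexp (-1.13 and -0.99) and in the deposited table (-0.89 and -0.75), and Ugt2a3 also with quantile normalization (-0.91).

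**Figure D3:**
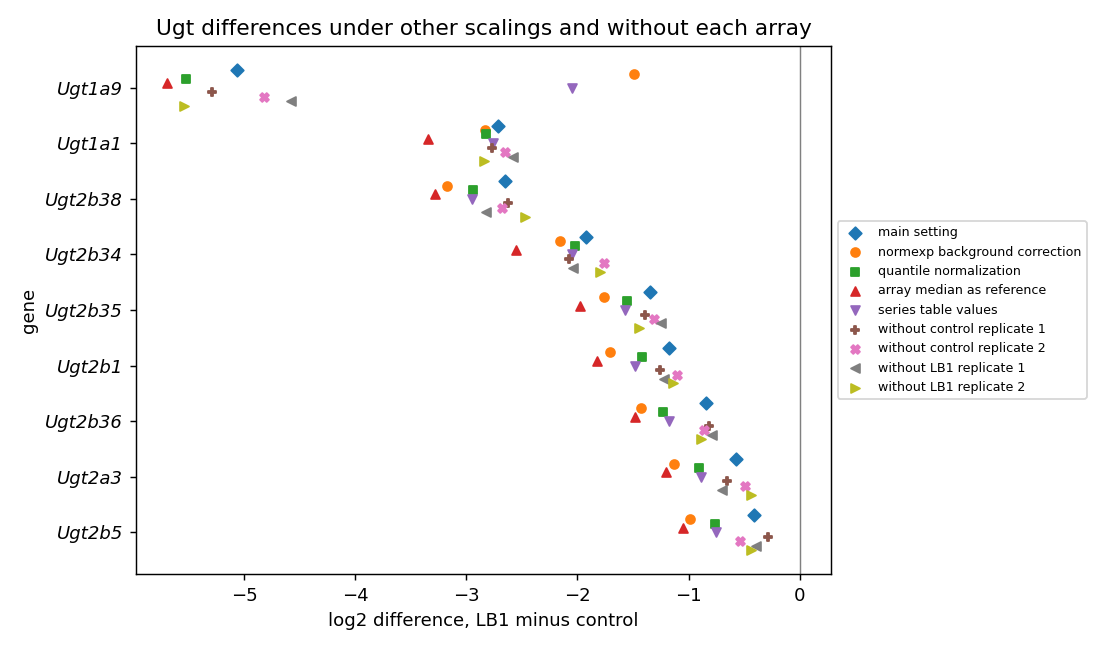
Log2 difference, LB1 minus control, of each UGT probe under the scaling used here, the other ways of scaling or correcting the arrays, and with each array left out in turn; each point is 1 probe under 1 setting. All 9 lie below 0 in each of these settings, and Ugt1a9 moves the most, from -5.69 to -1.49.

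The direction of the members did not turn under any of the scalings tried, but the size of the shift did depend on them. The median over the members was -1.98 with the array median as reference, when the median of all probes was -0.47, and -1.71 with normexp, when that of all probes was 0.44. With quantile normalization it was -1.55 beside -0.09. In each of these the 9 members lay below the median of all probes.

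The differences are also given by the position of the probe in its transcript. Among the 8 members well above background on all 4 arrays, Ugt1a1 at position 346 and Ugt2b38 at 834 lay nearest the 5′ end and had the largest falls. Ugt1a9 at 677 has no firm level in LB1 and no place in this order. With normexp its -1.49 was smaller than the -2.16 of Ugt2b34, the -1.76 of Ugt2b35 and the -1.71 of Ugt2b1. Ugt2b36 at 1325, Ugt2b5 at 1584 and Ugt2a3 at 1629 had the 3 smallest differences. The probes farther along, Ugt2b1 at 1839, Ugt2b34 at 2230 and Ugt2b35 at 2779, were in between. Of the other UGT genes, Ugt3a2 differed by -2.53 (adjusted p = 0.0201 by limma) at position 364 and by -0.97 (adjusted p = 0.0556) at position 1773. The tested probes of Ugt2a1, which also list Ugt2a2, lie close together, at positions 1058 and 1138, and differed by -2.02 and -1.98.

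**Figure D4:**
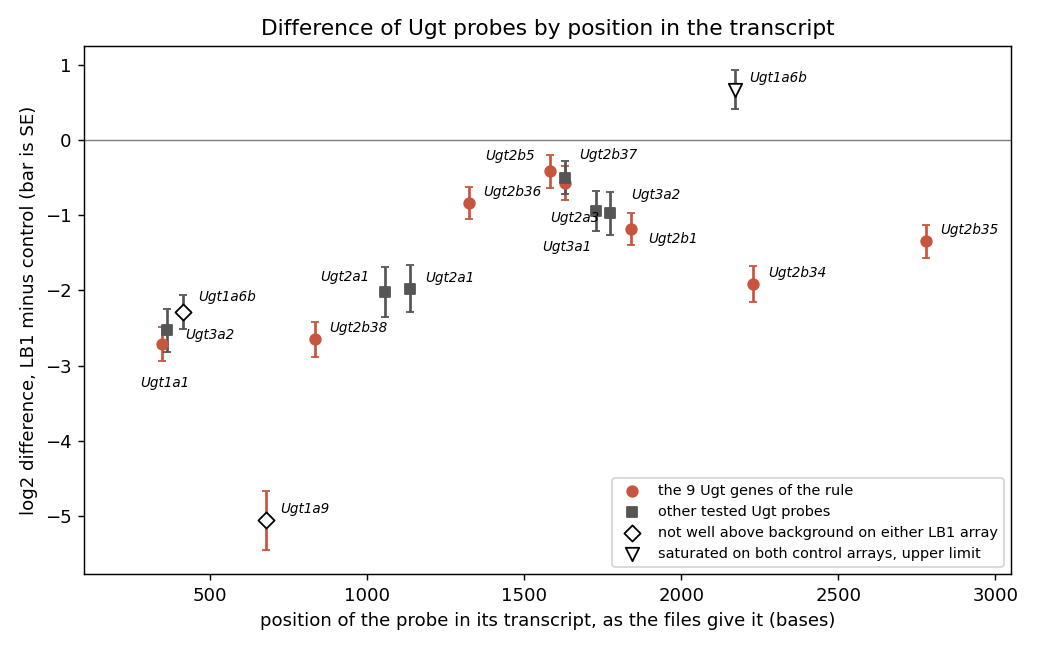
Log2 difference, LB1 minus control, of the UGT probes against the probe's position in its transcript in bases; bars are SE, diamonds mark probes too dim to stand well above background in LB1, and the triangle a probe saturated in both controls. Ugt1a1 and Ugt3a2 near the 5′ end lie at -2.71 and -2.53, and Ugt2b5 at position 1584 lies at -0.41. The Ugt1a6b diamond, drawn at -2.29, has no firm level in LB1.

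Probe position was also looked at in all genes with a pair of probes on 1 transcript, both well above background and unsaturated on all 4 arrays. Each pair sets probes of 1 transcript apart by their distance, while the members were ordered across genes. The pairs therefore do not test that order. The pair comparison was added after the values had been seen. Over 387 pairs that lay more than 250 and up to 500 bases apart, the probe nearer the 5′ end had the lower difference in 77.0%, against 58.2% of all 2896 pairs, with a median of -0.57 on the log2 scale. The median was -0.42 on slide 1 and -0.68 on slide 2. Over 632 pairs more than 500 and up to 1000 bases apart the median was -0.58, with 63.9% lower, and over 1397 pairs more than 1000 bases apart it was 0.16, with 45.6% lower. Between the control replicates, 2 minus 1, the same medians were 0.03, 0.04 and -0.03, and between the LB1 replicates they were -0.17, -0.08 and 0.06. The part of probe position in the members' differences was not tested, and a lower level cannot be told apart here from RNA or labelling that differed along the transcript.

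**Figure D5:**
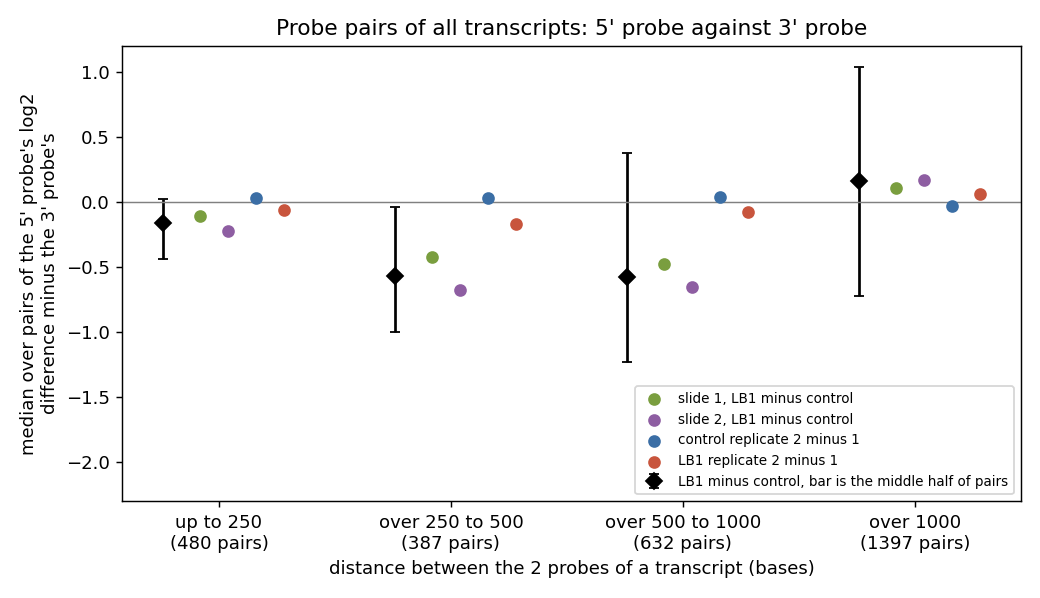
Difference between the 5′ and the 3′ probe of a transcript in LB1 minus control (log2), by the distance between the probes in bases; black points are medians over pairs with bars from the lower to the upper quartile, and coloured points are the medians on each slide and between replicates of a group. The median lies at -0.16, -0.57 and -0.58 in the 3 nearer classes and at 0.16 for pairs over 1000 bases apart.

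The promoters of Ugt2b38 and Ugt2b5 are shown because the probes named for these close relatives had the largest and the smallest difference of the Ugt2b probes. The pair was chosen after the values had been seen. The sequences are the 100 bases before the start in RefSeq (GRCm38.p6), which held a promoter for all 10 names, and the capitals mark the longest run of bases that both share.
Ugt2b38 (chr5:87424204-87424303, minus strand): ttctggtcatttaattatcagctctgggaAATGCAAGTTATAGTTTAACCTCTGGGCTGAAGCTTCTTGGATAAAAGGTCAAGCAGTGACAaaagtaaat
Ugt2b5 (chr5:87140341-87140440, minus strand): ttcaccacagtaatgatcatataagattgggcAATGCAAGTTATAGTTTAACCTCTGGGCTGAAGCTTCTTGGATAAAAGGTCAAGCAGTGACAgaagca
The shared run is 62 bases long. Ugt2b38 fell by 2.65 on the log2 scale, while the difference of Ugt2b5 was -0.41. The Ugt2b38 probe also lists Ugt2b5, and the probes lie at positions 834 and 1584 of their transcripts, so the promoters and these values cannot be set against each other as gene against gene. The shared run is a description of the sequence.

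Of 12 other UGT genes in the list, 6 had a probe and 5 were tested by their brightest probe. The probe named Ugt2a1 fell by 1.98 (SE 0.31, adjusted p = 0.0220 by limma), against 9.85% of all 16053 tested genes called lower. It also lists Ugt2a2, so its value may hold signal of both genes. A further Ugt2a1 probe, at position 1318, was well above background on no array and was not tested. Ugt3a1 differed by -0.94 (adjusted p = 0.0506), and Ugt2b37 by -0.50 (adjusted p = 0.135). Over all 6 pathway lists, 43 genes were tested, 7 were called higher, against 21.7% of all tested genes, and 6 lower, against 9.85%, and the median was 0.13 beside 0.29 for all genes. These counts turn on the scaling: 2 were higher and 10 lower with quantile normalization, and 1 higher and 14 lower with the array median.

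UDP-glucuronic acid, the sugar donor, is made by Ugdh and carried into the endoplasmic reticulum by Slc35 transporters. Of 9 genes for its supply, 2 rose and 0 fell, a share near the 21.7% of all tested genes called higher. Slc35d1, a carrier of UDP-glucuronic acid, had levels of 2.68 and 2.70 in controls and 4.15 and 4.63 in LB1 and rose by 1.70 (SE 0.26, adjusted p = 0.0217). Slc35b1, a nucleotide carrier of the same membrane, rose by 1.02 (SE 0.21, adjusted p = 0.0274), a call lost under quantile normalization (0.71) and the array median (0.39). Ugdh itself differed by 0.16 (adjusted p = 0.651).

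Conjugates leave hepatocytes through Abc exporters and are taken back by Slco carriers. Of 7 such genes, 3 were called lower, against 9.85% of all tested genes, 1 higher, against 21.7%, and 3 did not pass. Abcg2, an exporter of the canalicular membrane, fell by 1.66 (SE 0.21, adjusted p = 0.0211), while its other probe differed by -2.99, so the size of the fall is not settled. Abcc4, an exporter of the sinusoidal membrane, fell by 1.45 (SE 0.39, adjusted p = 0.0452), a call lost with normexp, and its other probe differed by -0.56. Slco1a4, an uptake carrier, fell by 1.39 (SE 0.32, adjusted p = 0.0341). Slco1b2 was called higher at 1.14 but both of its control spots were saturated, so this value is an upper limit, and it turned to -0.19 with quantile normalization. Gusb, the lysosomal enzyme that splits glucuronides, fell by 0.99 (SE 0.26, adjusted p = 0.0415), a call lost with the replicate block. Rgn, of the route from glucuronate to ascorbate, was called higher under the same saturation and turned to -0.21 with quantile normalization. The 4 genes of the bilirubin route did not pass.

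Of 14 regulators of UGT genes, 13 were tested, 3 were called higher and 1 lower, shares near the 21.7% and 9.85% of all tested genes. Ahr, the receptor for aromatic pollutants that induces Ugt1a genes, fell by 1.36 (SE 0.24, adjusted p = 0.0238), in levels from 2.62 and 2.79 to 1.17 and 1.51. Foxa2, a hepatocyte transcription factor, rose by 1.26 (SE 0.26, adjusted p = 0.0285), with a call lost at the array median (0.63) and with quantile normalization (0.96). Rxra, the partner of many nuclear receptors, had 0.90 (SE 0.21, adjusted p = 0.0343), lost with the replicate block, normexp, quantile normalization and the array median, while its other probe differed by -0.06.

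Facts of the arrays touch all of these values. The number of non-control spots well above background ranged from 24736 to 25861 on the control arrays and from 20311 to 22921 on the LB1 arrays, and 266 to 297 against 64 to 104 spots were saturated. Gapdh, the study's reference gene, differed by -0.04 (SE 0.24, adjusted p = 0.919). Marker counts stand beside 21.7% of all tested genes called higher and 9.85% called lower, and ranges are summed levels of a list on the linear scale. Hepatocyte markers were present on all arrays, and 1 of 11 tested was called lower and 4 higher. Most of their probes were saturated on a control array, and fewer in LB1. All 4 called higher (Alb, Apoa1, Ahsg and Fgb) had both control spots saturated, so they give no direction. Of 4 tested mesothelium markers, 3 were called higher, and the list ran from 0.107 to 0.772 in controls and from 7.28 to 22.8 in LB1. Of these, Lrrn4 was well above background on neither control array. Of 4 tested cholangiocyte markers, the keratins Krt7 (4.69) and Krt19 (4.26) were called higher and Spp1 (-1.53) lower. Krt19 stood well above background on only 1 control array, so its difference is not firm. The cholangiocyte list ran from 3.34 to 3.63 and from 3.71 to 10.2. The sinusoidal endothelium list ran from 47.1 to 53.5 and from 32.4 to 42.0, with 1 of 6 called lower. Leukocyte markers ran from 1.65 to 1.97 and from 2.19 to 3.33, with 3 of 6 called higher. Of the exocrine pancreas list only 2 of 6 genes were tested: Amy2a5 was called lower (-2.48), and Ctrb1 differed the other way (0.98, adjusted p = 0.211). Of 6 Kupffer cell markers 1 was called lower, of 6 stellate cell markers 2 were called higher, and of the 2 tested adipocyte and 2 tested intestine or kidney markers none passed. The part of these in the lower UGT signals was not tested. In whole tissue, fewer cells of a type and less RNA per cell cannot be told apart.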

How the data were processed

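Scanner files of 4 arrays hold linear spot intensity written by Feature Extraction 10.5.1.1, per the file headers, with background removed and trends corrected within each array but nothing done between arrays. The design text names another version of the software. The authors' deposited series table holds the mean spot intensity, rounded and unscaled: it lay within 0.5 of the scanner's mean signal in 100% of spots, with column medians of 70.0 and 65.0 (control) and 62.0 and 45.0 (LB1).

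Control spots and spots marked as outliers were left out. The log2 of the deposited processed intensity minus the array's 75th percentile was averaged over a probe's spots. The 22976 probes that stood well above background on both control or both LB1 arrays were tested with limma 3.58.1 in R 4.3.3, with Benjamini-Hochberg adjustment and a threshold of 0.05. Probes were named by accession (24844), current symbol (6045) or the file's own name (10285). For a probe too dim in 1 group, the fold was taken against a floor. On each dim array the probe's value was used, or the dimmest signal well above background if that was higher. Their mean was set against the bright group's mean. The floor is the lowest such signal of any probe, so the fold is no firm limit. Where both spots of a group were saturated, their level is a lower limit. The fit was tested on simulated data.

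Each replicate number is also 1 slide and 1 scan, holding 1 control and 1 LB1 array. Deviations of same-numbered arrays correlated at 0.151 over 22976 probes, but no label says that the number marks a shared batch. The members, the lists and the alternatives were chosen with earlier results of these data known, and the probe pair comparison, the brightness-matched background and the promoters shown after the values were seen. All member probes are named, and of the 6 pathway lists (51 genes) those past the threshold, with Gapdh; 1 of them is not reported here. Ugdh, Ugt1a6b, Ugt2b37, Ugt3a1, Ugt3a2 and the marker genes were named after their values were seen. Alternatives were normexp (offset 50), quantile normalization, the array median, the series table, other filters, a trended variance, the replicate block, the methods' t-test and leaving out each array. The titles number the samples as replicates, and each was taken as a separate mouse. On that reading the spread holds animal and technical variation, and the number of arrays limits the precision.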

Additional observations from a re-analysis of the deposited data

How the results depend on the processing

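All 9 members stayed lower under each alternative that gave them a value. Of all probes, 7439 were called; 15999 were with normexp, 14455 in the series table, 20683 with no filter, 4111 by the methods' t-test with 2-fold and 0 after Benjamini-Hochberg adjustment, where limma called 7439. Of all probes called, 40.7% were lower, 29.0% with normexp, 61.8% with quantile normalization, 81.1% with the array median and 26.0% in the series table. Leaving out 1 array gave 1 to 11031 calls over all probes, the lowest without control replicate 2, and 0 to 7 calls among the members by probe or by gene; the lone control was then assumed to vary like the LB1 pair. The methods' t-test gave 6 members unadjusted and 2-fold, and 0 after Benjamini-Hochberg adjustment. Of the pathway lists, 6 genes were called lower, 15 with normexp, 10 with quantile normalization, 14 with the array median, 15 in the series table, 3 by the t-test with 2-fold, 0 after its adjustment, and 0 to 9 with 1 array left out. With the replicate block 6962 probes, 6 members and 6 pathway genes were called; among members it changed only the call of Ugt2b36. Depth is limited by signal over background, which leaves Ugt1a9 without a firm level in LB1. The causes of these changes were not tested.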
